A study of Mus musculus with 4 samples.

Results

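The genes of oxidative phosphorylation were compared between regenerating livers of mice given an siRNA against Orm1 and of mice given a control siRNA. They were chosen by symbol, as genes measured by probe sets with 1 gene symbol starting with Nduf, Uqcr, Cox4 to Cox8 or Atp5, and Sdha to Sdhd. The rule found 84 of the 10923 genes in the table, measured by 152 probe sets. By symbol, 39 belonged to complex I, 4 to complex II, 8 to complex III, 16 to complex IV and 17 to complex V. The rule follows names and not function, so 5 Ndufaf genes, which encode assembly factors, and the supercomplex factor gene Cox7a2l were counted with the subunits.

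Per the series text, the siOrm mice had received 1 injection of an Orm1 siRNA with Invivofectamine 3.0, a lipid carrier that takes siRNA to the liver. The siControl mice are taken, from their group name, to have received a control siRNA. All were male C57BL6/J mice aged 6 to 13 weeks, and 40% of the liver was removed 3 days after the injection. Livers were measured 48 hours later, on 2 arrays of siOrm and 2 of siControl. The siOrm titles end in 1 and 2, which could also name siRNAs against Orm1 and Orm2, and the arrays were taken as replicates because their source names are the same. The series asked which genes depend on Orm1, an acute phase protein gene of hepatocytes. The labels do not say whether an array holds 1 mouse or a pool, so p-values speak only of the spread among these arrays, which may be technical.

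Oxidative phosphorylation takes place in the inner membrane of mitochondria. Complex I takes electrons from NADH and complex II takes them from succinate, and both pass them to ubiquinone. Complex III hands them to cytochrome c and complex IV to oxygen, and complexes I, III and IV pump protons whose return through complex V, the ATP synthase, makes ATP. Hepatocytes are rich in mitochondria, and the regenerating liver draws on them for the energy of growth. Most of the subunits are encoded in the nucleus and the remainder in the mitochondrial genome.

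Each value is the log2 signal of an array relative to the median of the 4 arrays for that probe set, averaged over the probe sets of a gene. The base of the logarithm is assumed to be 2. Because a median of 4 is the mean of the middle 2 values, the middle arrays of a gene with 1 probe set mirror each other around 0. The table holds no signal levels, so the tissue could not be checked against its markers and no gene's level can be set against another's. The targeted gene Orm1 stood at -0.24 and -0.015 in siOrm and at 0.015 and 0.19 in siControl, a difference of -0.23 (SE 0.15, limma adjusted p = 0.994, not called). Leaving out siOrm replicate 1 gave -0.12, and leaving out siControl replicate 2 gave -0.14, so it checks the labels only weakly. Its paralogs Orm2 and Orm3 differed by -1.08 (SE 0.34) and -0.91 (SE 0.34), and for all 3 genes the siOrm arrays were both below the siControl arrays, though none was called with all 4 arrays. Orm2 was -0.69 with siOrm replicate 1 left out and -0.71 with siControl replicate 2 left out. Orm3 was -0.39 with siControl replicate 2 left out, and with siControl replicate 1 left out it was -1.43 and passed the threshold. Over all genes the values of siControl replicate 2 were spread the most, with an SD of 0.300, against 0.209 and 0.116 in the siOrm arrays and 0.176 in siControl replicate 1.

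The oxidative phosphorylation genes lay slightly higher in siOrm livers, by a similar small amount in nearly every gene. The group mean of siOrm was above that of siControl in 78 of 84 genes, or 92.9%, where this held for 52.2% of all genes. The median difference was 0.126, a factor of 1.09, against 0.008 over all genes. The quartiles of the members lay between 0.076 and 0.157, and their differences had an SD of 0.095 over genes, against 0.245 over all genes. No member passed the test by itself: 0 of 84 were called higher and 0 lower (limma, adjusted p of at least 0.994), and 0% of all genes were called in either direction. At an unadjusted p under 0.05, limma gave 1 member higher and 0 lower, with 2.18% of all genes higher and 2.58% lower. The 95% interval of 83 members held 0. The median standard error of a member was 0.132, about as large as the median difference. With errors of this size, the lack of calls does not show that the members did not differ.

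Array by array, the median over the 84 genes was 0.052 and 0.038 in siOrm replicates 1 and 2, against -0.028 and -0.091 in siControl replicates 1 and 2. The siOrm arrays thus lay together and both siControl arrays lay below them, siControl replicate 2 the furthest. Both siOrm arrays were above both siControl arrays in 51 members, or 60.7%, and 17% of all genes showed that order. They were below both in 1 member, Atp5g2, where 15.3% of all genes showed the opposite order. The remaining 32 members overlapped. The lowest of the 4 arrays was siControl replicate 2 in 56 members and siControl replicate 1 in 21. Among all genes siControl replicate 2 was lowest in 38.8% and siControl replicate 1 in 20.5%, the latter near its share of the 84 members.

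**Figure D1:**
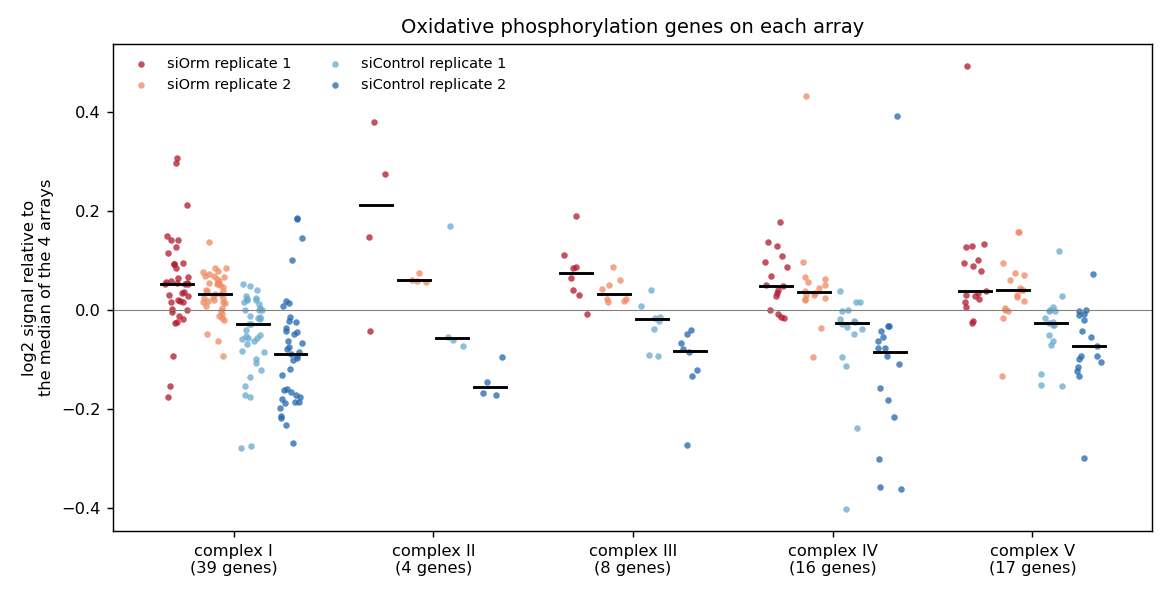
Each point is 1 oxidative phosphorylation gene on 1 array, grouped by complex along the x axis, with the log2 signal relative to the median of the 4 arrays on the y axis. Black bars are medians over genes; in each complex the siOrm medians (between 0.031 and 0.211) lie above 0 and the siControl medians (between -0.157 and -0.019) below.

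Single pairs of arrays gave the same order with different sizes. The median over members of siOrm replicate 1 minus siControl replicate 1 was 0.100, and of siOrm replicate 2 minus siControl replicate 1 it was 0.078. Against siControl replicate 2 the medians were 0.152 and 0.140. Within groups the arrays differed by 0.020 in siOrm (replicate 1 minus 2) and by 0.055 in siControl. The siControl pair was also apart over all genes, by a median of 0.049. Without siControl replicate 2 the members' median difference was 0.076 and that of all genes -0.014, so the members stood 0.090 above all genes. With all 4 arrays they stood 0.117 above.

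Probe sets gave a second look at the same arrays, though not an independent one. Of the 152 member probe sets, 140 had a higher siOrm mean, against 50.6% of all probe sets. Both siOrm arrays were above both siControl arrays in 96 of them and below in 1, where the shares over all probe sets were 16.7% and 15.8%. Of the 44 members with more than 1 probe set, 36 had every probe set on the same side of 0. The differences of a gene's probe sets spanned a median of 0.082, and in no gene more than 0.5. The complex I genes Ndufs8 and Ndufa7, with 6 and 5 probe sets, spanned 0.106 to 0.175 and 0.093 to 0.159.

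**Figure D2:**
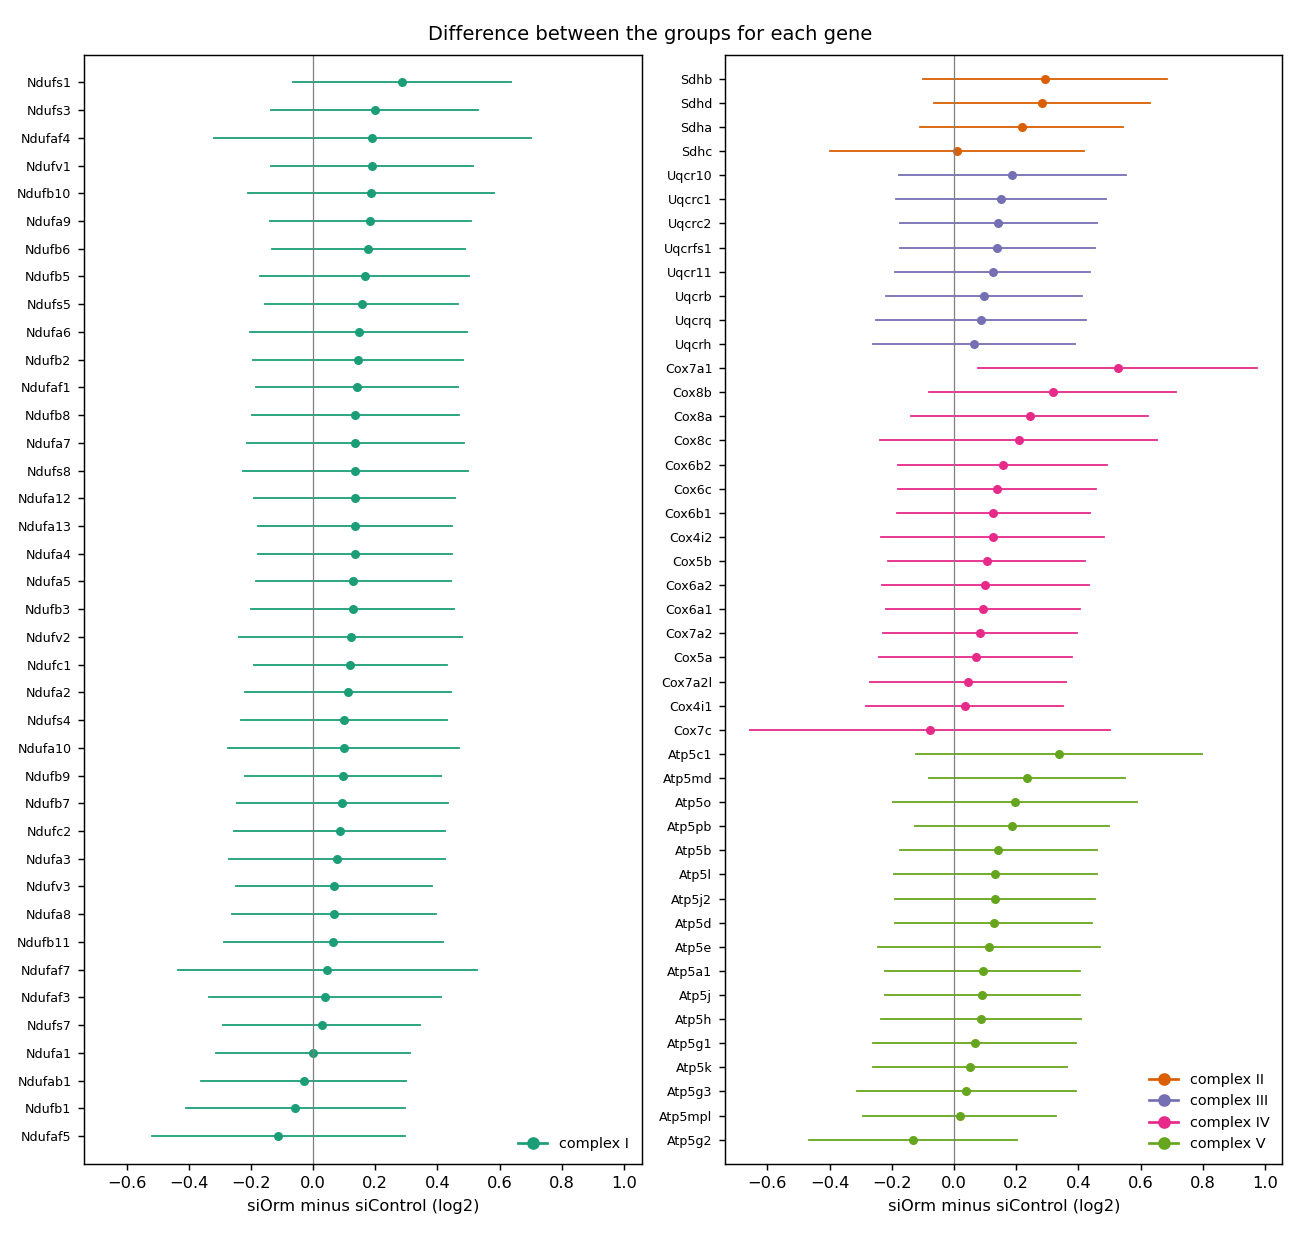
Points are the differences of the group means, siOrm minus siControl, in log2 units on the x axis, with 95% intervals from limma as lines, for the 84 genes sorted within their complex down the y axis. Most points lie between 0 and 0.25 (72 of 84), and Cox7a1 is the gene whose interval lies above 0.

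Promoters of several members are shown because the genes leaned the same way and because the factors NRF1, GABP, YY1 and ERR alpha are known to act on nuclear genes of this system. RefSeq windows of GRCm38.p6, from 250 bases before to 50 after the annotated start, were found for 70 members (75 windows). The NRF1 motif searched, GCGCATGCGC, is its own reverse complement and stood in 6 members. The ETS motif CCGGAAG, which GABP reads, stood in 18 members, AAGATGGC for YY1 in 9 and TCAAGGTCA for ERR alpha in 2, each on either strand. Matches to different motifs overlapped in 0 member windows. Below, capitals mark a match and only bases before the start are printed, on the strand of the gene, 5′ to 3′. A gene with a match is shown for each complex, then Cox7a1, the member with the largest difference, and Atp5g2, the member whose siOrm arrays were both below.
Ndufb7 (complex I, chr8:83566688-83566757, plus strand, ETS): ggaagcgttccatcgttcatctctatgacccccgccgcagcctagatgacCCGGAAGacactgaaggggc
Sdhd (complex II, chr9:50603850-50603919, minus strand, ETS): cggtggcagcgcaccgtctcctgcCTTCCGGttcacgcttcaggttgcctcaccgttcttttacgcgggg
Uqcr11 (complex III, chr10:80406822-80406911, minus strand, ETS): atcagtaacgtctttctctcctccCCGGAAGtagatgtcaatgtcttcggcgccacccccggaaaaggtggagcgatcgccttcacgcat
Cox6a1 (complex IV, chr5:115348959-115349138, minus strand, NRF1 then ETS): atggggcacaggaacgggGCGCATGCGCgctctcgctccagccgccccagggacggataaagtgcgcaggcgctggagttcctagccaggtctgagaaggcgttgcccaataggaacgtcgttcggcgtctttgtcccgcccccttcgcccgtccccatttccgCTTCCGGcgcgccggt
Atp5k (complex V, chr5:108434400-108434479, minus strand, NRF1): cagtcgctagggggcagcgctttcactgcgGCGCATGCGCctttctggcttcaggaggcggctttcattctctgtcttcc
Cox7a1 (complex IV, chr7:30184051-30184170, plus strand, no match): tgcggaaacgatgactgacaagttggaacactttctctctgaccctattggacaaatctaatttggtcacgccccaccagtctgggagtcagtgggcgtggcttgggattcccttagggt
Atp5g2 (complex V, chr15:102671048-102671127, minus strand, NRF1): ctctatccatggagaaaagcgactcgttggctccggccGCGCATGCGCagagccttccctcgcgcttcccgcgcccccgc

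As shares of promoter windows, the NRF1 motif stood in 8% of member windows, against 1.71% of the 11206 windows of genes on the array and 0.971% of all 32851 windows. The ETS motif stood in 24%, against 15.2% and 8.86%, and the YY1 motif in 12%, against 3.88% and 2.75%. Of the members with the YY1 motif, only Atp5j had it wholly before the annotated start. In Atp5pb it spanned the start, and in the others it began 22 to 38 bases after the start. The ERR alpha motif stood in 2.67%, against 0.312% and 0.423%. The GC content of member windows had a median of 58.7%, against 60% for genes on the array. The difference between siOrm and siControl was much the same with and without the ETS motif, with a median of 0.130 in the 18 members that had it and 0.128 in the 52 that did not. With the NRF1 motif it was 0.072 in 6 members, against 0.130 in the other 64. These matches describe the letters in the windows, and no binding was measured.

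Complex I, the NADH dehydrogenase, had 39 genes with a median difference of 0.127, and 35 of them were higher in siOrm by their means. The siOrm arrays were both above the siControl arrays in 20 and both below in 0 (17% and 15.3% of all genes). The 6 measured core genes, which encode the catalytic heart of the enzyme, among them the subunits with the flavin and the iron-sulfur clusters, had a median of 0.162. Ndufs1, the largest core subunit, stood at 0.31 and 0.085 in siOrm and at -0.085 and -0.098 in siControl. The siControl arrays were close and siOrm replicate 1 was high, and the difference was 0.29 (SE 0.14), or 0.18 without siOrm replicate 1. Ndufv1, which binds NADH and the flavin, stood at 0.057 and 0.076 in siOrm and at -0.057 and -0.19 in siControl, and all 3 of its probe sets gave a difference of 0.19, or 0.12 for the gene with siControl replicate 2 left out. Ndufs3, a core subunit of the arm that faces the matrix, stood at 0.15 and 0.040 in siOrm and at -0.040 and -0.17 in siControl. In these 3 genes the groups did not overlap and none passed the test. In the other measured core genes, Ndufs7, Ndufs8 and Ndufv2, the groups overlapped, with differences of 0.028, 0.14 and 0.12. The medians of the 6 core genes by array were 0.056 and 0.045 in siOrm and -0.014 and -0.177 in siControl.

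The 27 accessory subunit genes of complex I had a median difference of 0.120 and ran from -0.057 to 0.186. Their products stabilise and help assemble the complex. Ndufa9, a subunit at the ubiquinone end of the matrix arm, stood at 0.065 and 0.058 in siOrm and at -0.058 and -0.19 in siControl, a difference of 0.18, or 0.12 with siControl replicate 2 left out. Ndufb6, a subunit of the membrane arm, stood at 0.066 and 0.050 in siOrm and at -0.12 and -0.12 in siControl, a difference of 0.18 (SE 0.12). The equal siControl values are averages of 2 probe sets with opposite orders of these arrays, -0.041 and -0.18 against -0.20 and -0.059. Ndufa4, named for complex I but now assigned to complex IV, stood at 0.052 and 0.085 in siOrm and at -0.052 and -0.080 in siControl. Ndufa1, Ndufab1 and Ndufb1 were not higher, with differences of -0.001, -0.030 and -0.057 that changed sign when siOrm replicate 1 was left out. These 3 and the other members with negative differences were picked out after their values were seen. Ndufab1, the mitochondrial acyl carrier protein, also serves lipoic acid synthesis.

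The 5 Ndufaf assembly factor genes had a smaller median, 0.046, and were less alike. In these the high array was often siControl replicate 2: their medians by array were 0.036 and 0.004 in siOrm and -0.176 and 0.144 in siControl. Only Ndufaf1 had both siOrm arrays above both siControl arrays, or 20% of the 5, near the 17% of all genes. Ndufaf5, a methyltransferase needed for assembly, had the lowest difference in complex I, at -0.11, and it was 0.011 without siOrm replicate 1. The difference between assembly factors and subunits was not tested.

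Complex II, succinate dehydrogenase, also belongs to the tricarboxylic acid (TCA) cycle. Its 4 genes had the highest median of the complexes, 0.251, with siOrm replicate 1 the furthest out: the medians by array were 0.211 and 0.060 in siOrm and -0.058 and -0.157 in siControl. The flavoprotein gene Sdha stood at 0.15 and 0.061 in siOrm and at -0.061 and -0.17 in siControl, a difference of 0.22 (SE 0.13). Sdhb, the iron-sulfur subunit, stood at 0.38 and 0.055 in siOrm and at -0.055 and -0.095 in siControl. Its difference of 0.29 (SE 0.16) was 0.13 without siOrm replicate 1 and 0.46 without siOrm replicate 2. The membrane anchors are encoded by Sdhd and Sdhc. Sdhd stood at 0.28 and 0.074 in siOrm and at -0.074 and -0.15 in siControl, and its difference of 0.28 was 0.18 without siOrm replicate 1. Sdhc stood at -0.042 and 0.059 in siOrm and at 0.17 and -0.17 in siControl, with a difference of 0.010 and a 95% interval from -0.40 to 0.42. The 2 probe sets of Sdhc disagreed in sign, at -0.092 and 0.111, and those of Sdhd gave 0.202 and 0.366. Without siOrm replicate 1 the median of complex II was 0.153, nearer to the other complexes.

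Complex III, the cytochrome bc1 complex, had the most uniform genes. All 8 were higher in siOrm by their means, from 0.063 to 0.188, with a median of 0.132 and an SD over genes of 0.040. Both siOrm arrays were above both siControl arrays in 6 of 8 (17% of all genes). The core genes Uqcrc1 and Uqcrc2 had differences of 0.15 (SE 0.14) and 0.14 (SE 0.13). Uqcrc1 stood at 0.19 and 0.017 in siOrm and at -0.017 and -0.079 in siControl, and without siOrm replicate 1 its difference was 0.065. Uqcrc2 stood at 0.11 and 0.041 in siOrm and at -0.092 and -0.041 in siControl. Uqcrfs1, the Rieske iron-sulfur protein, stood at 0.087 and 0.049 in siOrm and at -0.094 and -0.049 in siControl. Uqcr11, a small subunit, stood at 0.039 and 0.086 in siOrm and at -0.039 and -0.086 in siControl. Uqcr10, another small subunit, had the highest difference, 0.19, with siControl replicate 2 at -0.27 and the other arrays between -0.014 and 0.060, and it was 0.059 with that low array left out. Cyc1, the cytochrome c1 subunit of the same complex, is outside the symbols of the rule and differed by 0.30 (SE 0.13), at 0.27 and 0.11 in siOrm and -0.12 and -0.11 in siControl.

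Complex IV, cytochrome c oxidase, had 16 genes with a median difference of 0.115, of which 15 were higher in siOrm by their means and 10 had both siOrm arrays above both siControl arrays (17% of all genes). The 10 members other than tissue-specific isoforms had a lower median, 0.089. Cox4i1, the main isoform of subunit 4 in liver, stood at -0.016 and 0.067 in siOrm and at 0.016 and -0.033 in siControl, a difference of 0.034 (95% interval from -0.28 to 0.35) that was -0.008 without siOrm replicate 2. Cox5a stood at 0.039 and 0.020 in siOrm and at -0.039 and -0.042 in siControl. Its 3 probe sets gave differences between 0.057 and 0.092. Cox8a, the liver isoform of subunit 8, stood at 0.14 and 0.024 in siOrm and at -0.024 and -0.30 in siControl, a difference of 0.24 that was 0.10 without siControl replicate 2 and 0.38 without siControl replicate 1. Cox7c was the complex IV gene with a negative difference, -0.076, and the least certain, with siControl replicate 2 at 0.39 and siControl replicate 1 at -0.24. Without siControl replicate 2 it was 0.24.

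The 6 tissue-specific isoforms of complex IV had a median difference of 0.182. Cox7a1, known as the heart and skeletal muscle isoform of subunit 7a and also found in brown fat, differed the most of the 84 members. It stood at 0.11 and 0.43 in siOrm and at -0.40 and -0.11 in siControl, a difference of 0.53 (SE 0.18, 95% interval from 0.077 to 0.98), a factor of 1.44. It was the member with an unadjusted p under 0.05 and did not pass over all genes (limma, adjusted p = 0.994). Its difference lay at the 98.7th percentile of all genes. Cox8b, the muscle isoform of subunit 8, stood at 0.18 and 0.049 in siOrm and at -0.049 and -0.36 in siControl, a difference of 0.32 (SE 0.16), or 0.16 without siControl replicate 2. Cox6a2, another muscle isoform, stood at 0.00 and 0.044 in siOrm and at 0.00 and -0.16 in siControl. The lung isoform Cox4i2 and the testis isoforms Cox6b2 and Cox8c differed by 0.12, 0.16 and 0.21, each with siControl replicate 2 lowest, between -0.36 and -0.18. Leaving out that array gave 0.008, 0.076 and 0.008, and 0.022 for Cox6a2. Whether these isoforms had signal above background cannot be seen in a centred table. The muscle markers, 5 measured of 8, had medians of 0.051 and -0.058 in siOrm and of 0.085 and -0.089 in siControl, and the part of such tissue in these values was not tested.

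Complex V, the ATP synthase, had 17 genes with a median difference of 0.113, of which 16 were higher in siOrm by their means. Both siOrm arrays were above both siControl arrays in 12 and below in 1 (17% and 15.3% of all genes). The 5 genes of the catalytic F1 part had a median of 0.128. Atp5a1 (now Atp5f1a) and Atp5b (now Atp5f1b) encode the alpha and beta subunits, which form the catalytic ring. Atp5a1 stood at 0.078 and 0.040 in siOrm and at -0.064 and -0.002 in siControl, a difference of 0.092 that was 0.061 with siControl replicate 1 left out, and Atp5b stood at 0.13 and 0.043 in siOrm and at -0.071 and -0.043 in siControl, a difference of 0.14. Atp5c1 (now Atp5f1c), the gamma subunit that turns inside the ring, had the highest difference of the complex, 0.34 (SE 0.18). It rested on siOrm replicate 1, at 0.49, against 0.039 in siOrm replicate 2 and -0.052 and -0.094 in siControl, and it was 0.11 without that array.

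The stalk and membrane genes of complex V were the most consistently separated, 8 of 9 (17% of all genes), with a median of 0.132. Atp5md, a small membrane subunit that supports dimers of the enzyme, stood at 0.13 and 0.094 in siOrm and at -0.15 and -0.094 in siControl, a difference of 0.23 (SE 0.13). Atp5pb, the b subunit of the peripheral stalk, stood at 0.094 and 0.074 in siOrm and at -0.13 and -0.074 in siControl, a difference of 0.19 (SE 0.13). Atp5o, which joins the stalk to the catalytic part, was the stalk gene whose groups overlapped, with siControl replicate 2 at -0.30 and the other arrays between -0.003 and 0.10, and its difference of 0.20 was 0.044 with that low array left out. The c-ring was different in value: Atp5g1, Atp5g2 and Atp5g3, which encode the same mature subunit c with different leader peptides, had a median of 0.040 and none was separated upwards. Atp5g2 stood at -0.023 and -0.13 in siOrm and at 0.12 and -0.010 in siControl, a difference of -0.13 (SE 0.13), and its 2 probe sets gave -0.27 and 0.002. It was -0.078 with siOrm replicate 2 left out and -0.068 with siControl replicate 1 left out. The difference between the c-ring and the other genes of complex V was not tested.

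Set side by side, complexes I, III, IV and V had medians between 0.113 and 0.132, and complex II stood above them at 0.251 with 4 genes. With only structural subunits, assigned by function, the medians were 0.127, 0.251, 0.132, 0.126 and 0.113 for complexes I to V. No test of a difference between complexes was made. The order of the complexes other than II changed with the setting, and complex II stayed on top in each setting shown. Without siControl replicate 2 the medians were 0.073, 0.206, 0.088, 0.069 and 0.080.

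**Figure D3:**
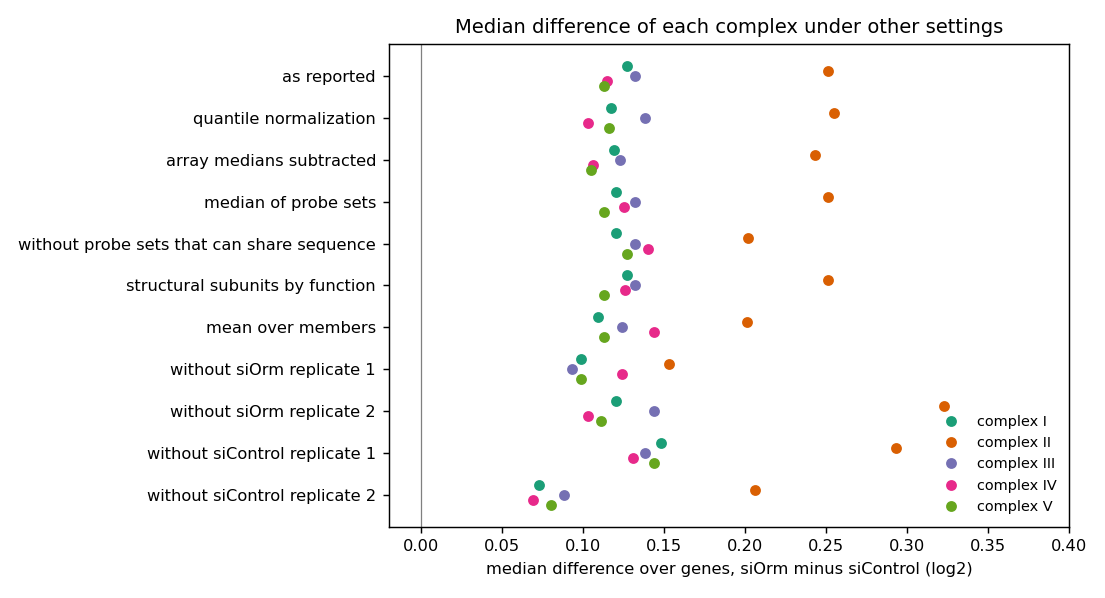
The x axis gives the median difference of each complex, siOrm minus siControl in log2 units, and each line on the y axis is another way of computing it or leaves out 1 array. All points lie above 0; complex II lies furthest right, between 0.153 and 0.323, and leaving out siControl replicate 2 moves complexes I, III, IV and V to between 0.069 and 0.088.

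Other genes of mitochondrial energy metabolism were described through lists. The 22 measured genes of the TCA cycle and pyruvate dehydrogenase, which supply NADH and succinate to the chain, had a median difference of 0.213, with 20 higher in siOrm by their means, 14 separated upwards and 0 downwards (17% and 15.3% of all genes). None was called. The medians of these 22 genes by array were 0.171 and 0.023 in siOrm and -0.072 and -0.085 in siControl. Of the siOrm arrays, only replicate 1 lay above its median over the oxidative phosphorylation genes, 0.052. Replicate 2 lay below its median of 0.038, so the larger difference of this list leaned on siOrm replicate 1. Dlat, a subunit of pyruvate dehydrogenase, stood at 0.20 and 0.088 in siOrm and at -0.17 and -0.24 in siControl, a difference of 0.35 (SE 0.13). Its kinases differed by 0.66 (Pdk1, SE 0.25) and 0.45 (Pdk2, SE 0.18), or by 0.34 and 0.23 without siOrm replicate 1. Pdk4, picked out for its size, went the other way at -0.78, with siControl replicate 2 at 1.63 and the other arrays between -0.073 and 0.013. The 16 genes of cytochrome c and ubiquinone had a median of 0.105. The ubiquinone synthesis gene Coq8a differed by 0.46 (SE 0.15) and Etfdh, which feeds electrons from fatty acid oxidation to ubiquinone, by 0.42 (SE 0.18), or 0.24 with siControl replicate 2 left out.

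Assembly factors and cofactor genes outside the rule had a median difference of 0.053 over 30 genes, with 22 higher by their means, 10 separated upwards and 2, Cox15 and Ttc19, downwards (17% and 15.3% of all genes). Sco2, a copper chaperone of complex IV, differed by 0.34 (SE 0.15), and with siOrm replicate 1 left out by 0.21. Sdhaf1, which helps assemble complex II, differed by 0.32 (SE 0.15), and with siControl replicate 1 left out by 0.20, and Ecsit, a complex I assembly factor, by 0.29 (SE 0.14). Mitochondrial carriers and import genes had a median of 0.100 over 26 genes, with Slc25a20, the carnitine carrier, at 0.46 (SE 0.15), Tomm70a, an import receptor, at 0.24 (SE 0.13), and Timm8a1, an import chaperone, at 0.27 (SE 0.15), or 0.15 without siOrm replicate 1. The mitochondrial genome was represented by 1 gene, ND5, a complex I subunit, which differed by -0.13 (SE 0.16) and by 0.030 without siControl replicate 2.

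Of the 23 regulators of mitochondrial biogenesis, 15 were higher in siOrm by their means (52.2% of all genes were), and none was called. Their median difference was 0.074, with 9 separated upwards and 1 downwards (17% and 15.3% of all genes). Ppargc1b, a coactivator of mitochondrial genes, stood at 0.25 and 0.25 in siOrm and at -0.25 and -0.34 in siControl, a difference of 0.55 (SE 0.13). Polg2, a subunit of the mitochondrial DNA polymerase, stood at 0.31 and 0.24 in siOrm and at -0.24 and -0.26 in siControl, a difference of 0.52 (SE 0.13). Sirt3, a mitochondrial deacetylase, stood at 0.43 and 0.19 in siOrm and at -0.19 and -0.47 in siControl, a difference of 0.64 (SE 0.17). These 3 were named because their unadjusted p was the smallest of the list, and none passed over all genes (limma, adjusted p = 0.994 for all 3). Wide gaps between their groups follow from that choice. Pprc1, a related coactivator picked out after its values were seen, went the other way, at -0.44 and -0.21 in siOrm and 0.21 and 0.23 in siControl, a difference of -0.54 (SE 0.14). Among the factors whose motifs are marked above and their partners, also chosen after their values were seen, Esrra differed by 0.24, Gabpa by 0.19 and Nrf1 by -0.083, and Ppargc1a and Tfam differed by 0.21 and 0.26. Leaving out siControl replicate 2 gave 0.077 for Gabpa, -0.18 for Nrf1 (0.011 with siControl replicate 1 left out instead), 0.12 for Ppargc1a and 0.15 for Tfam, and leaving out siOrm replicate 2 gave 0.12 for Ppargc1a.

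Other sets of abundant housekeeping genes had medians below 0. The 47 cytosolic ribosomal protein genes had a median difference of -0.102, with 7 higher in siOrm by their means (52.2% of all genes were), 0 separated upwards and 13 downwards (17% and 15.3% of all genes). Their medians by array were -0.135 and 0.024 in siOrm and 0.117 and -0.024 in siControl, so siOrm replicate 2 lay above siControl replicate 2. The 38 proteasome subunit genes had a median of -0.047, with 15 higher, 3 separated upwards and 7 downwards, the last near the 15.3% of all genes. Their medians by array were -0.033 and 0.012 in siOrm and 0.032 and -0.014 in siControl. These sets were taken by symbol as a description, and the differences between sets were not tested.

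**Figure D4:**
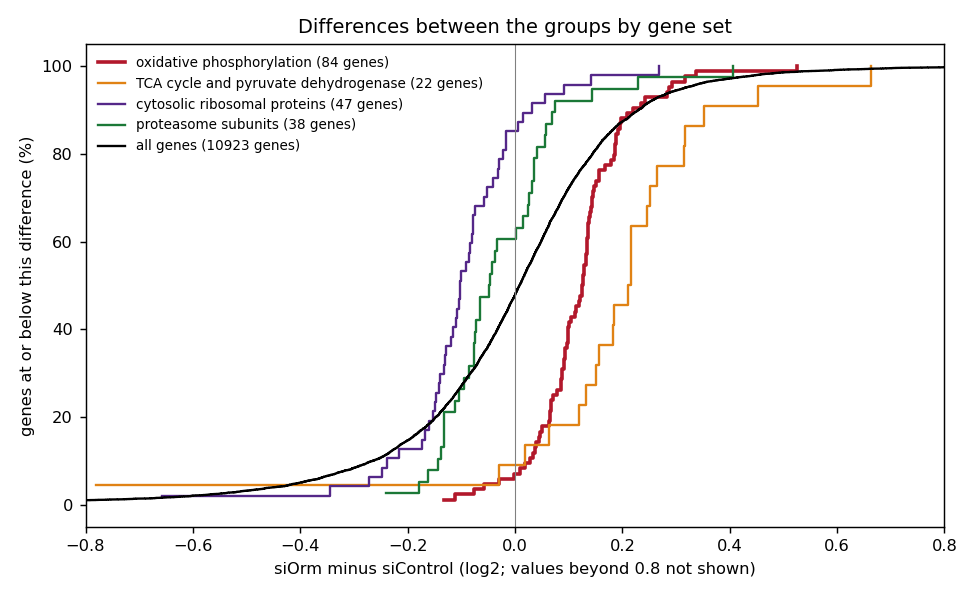
Each line gives the share of a gene set (y axis, %) at or below a difference between the groups (x axis, siOrm minus siControl, log2). The oxidative phosphorylation line (84 genes, median 0.126) rises steeply to the right of the line of all genes (median 0.008), the TCA cycle line lies further right (median 0.213) and the ribosomal protein line to the left (median -0.102).

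Of the marker lists of other cell types, that of macrophages stood furthest out in siControl replicate 2, the array that was lowest for most members. In that array the medians of stellate and endothelial markers were 0.293 and 0.221. Those of T and NK cell, B cell and cholangiocyte markers were -0.151, -0.217 and -0.035. All 10 macrophage markers of the list were measured, and they had medians of 0.021 and -0.015 in siOrm and of -0.201 and 0.805 in siControl, and 9 of the 10, all but Adgre1, were highest in siControl replicate 2, with Marco at 1.97. The 8 measured neutrophil markers, of 10, had medians of -0.002 and -0.013 in siOrm and of 0.089 and -0.025 in siControl. Among them S100a8 stood at 2.75 in siControl replicate 2, while 5 of the 8 were below 0 there. The hepatocyte markers, 6 measured of 8, had medians of 0.050 and 0.018 in siOrm and of -0.024 and -0.049 in siControl. These medians had the order of the members' medians, with a median difference of 0.074. By gene, 3 of the 6 were separated upwards (17% of all genes) and 3 overlapped, among them Apoa1 at -0.023 and Fgb at -0.006. The erythroid markers, 3 measured of 7, each had both siOrm arrays above both siControl arrays (17% of all genes). Their medians were 0.434 and 0.093 in siOrm, against -0.093 and -0.265 in siControl. By gene the siOrm values, replicate 1 first, were 0.434 and 0.265 (Alas2), 0.698 and 0.040 (Slc4a1) and 0.337 and 0.093 (Klf1). Which markers are near background cannot be seen in centred values. In such tissue samples a change in the share of a cell type and a change of RNA per cell cannot be told apart, and the part of these cells in the members' difference was not tested. With siControl replicate 2 left out, 76 of 84 members and 46.9% of all genes were higher in siOrm. The members' median difference was then 0.076, as given above.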

How the data were processed

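The deposited table held log2 signal of 18852 probe sets on 4 arrays, made by the authors on Affymetrix Mouse Genome 430A 2.0 arrays per the labels' series text. Each row had been centred on its median over the 4 arrays (largest row median 4.8e-07). No source used here gives the software, the normalization or the log base, and base 2 was assumed. The labels' protocols speak of another maker's labelling kit and of cultured cells, which leaves the laboratory steps uncertain. Probe sets were named through the platform annotation: 17209 had 1 symbol, and 8 further probe sets of these symbols, which name several genes, were left out.

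Probe sets of the same gene were averaged. Differences, siOrm minus siControl, were fitted over all 10923 genes with lmFit and eBayes of limma 3.58.1 (R 4.3.3, constant prior, 2 residual degrees of freedom), two-sided, with Benjamini-Hochberg adjustment and a threshold of 0.05. The fit was tested on simulated data, where it recovered no changes as small as the members' differences, the largest included. A filter on dim probe sets would need signal levels and was not made, and the number of arrays limits the precision. Other normalizations, gene summaries, priors and left-out arrays were tried. Named genes were up to 5 members per complex with the smallest p, core genes, tissue-specific isoforms, members past 0.5, and up to 3 genes per list. The members and lists were chosen with earlier results of these data known. Promoter sequences are from RefSeq, GRCm38.p6.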

Additional observations from a re-analysis of the deposited data

How the results depend on the processing

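No member was called in any setting tried, those that left out 1 array included. Over all genes limma called 0, but 11 with a prior that follows the row mean and up to 229 when 1 array was left out (0 to 229, the highest without siControl replicate 1, which sets siControl replicate 2 alone against siOrm). With the replicate number as a block, 0 genes and 0 members were called. Same-numbered arrays deviated with a correlation of 0.13 over genes, and with 2 pairs the numbers were not taken as pairs. The members' median difference was 0.120 after quantile normalization and 0.126 with the replicate block, and from 0.076 to 0.148 with 1 array left out. With 1 array left out the medians ran from 0.073 to 0.148 for complex I, 0.153 to 0.323 for complex II, 0.088 to 0.144 for complex III, 0.069 to 0.131 for complex IV and 0.080 to 0.144 for complex V. A lone array is then assumed to vary like the other group. With 1 array left out, 10 named genes changed sign, over these ranges: Sdhc from -0.161 to 0.181, Cox4i1 from -0.008 to 0.075, Cox7c from -0.391 to 0.238, Ndufa1 from -0.025 to 0.023, Ndufab1 from -0.093 to 0.033, Ndufaf5 from -0.239 to 0.015, Ndufb1 from -0.157 to 0.043, ND5 from -0.28 to 0.030, Nrf1 from -0.177 to 0.011 and Pdk4 from -1.633 to 0.073. After quantile normalization Sdhc was -0.021 and Ndufa1 0.002. The cause was not tested.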
